A study of Rattus norvegicus with 9 samples.

Results

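The genes described here encode the matrix metalloproteinases (MMPs), the ADAMTS proteases, the ADAMTS-like proteins and the tissue inhibitors of metalloproteinases (TIMPs), measured in rat knee tissue 1 week after meniscus surgery. They were chosen by symbol, as every MMP, ADAMTS, ADAMTS-like or TIMP gene for which 3 or more of the 9 libraries listed a TPM above 0. Of 17602 genes in the table, 49 had such a symbol and 48 were kept, comprising 20 MMPs, 19 ADAMTS proteases, 5 ADAMTS-like proteins and 4 TIMPs. The gene left out was Mmp1, which was listed at 0.05 TPM in 1 sham library and at 0 in the others. TPM is a transcript level per unit of length, scaled to the same total in every library, so levels of different genes can be set side by side.

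The samples came from wild-type male Lewis rats aged 10 to 12 weeks. Intact knees had no surgery and gave synovium, the lining tissue of the joint. Sham knees had the joint capsule opened and closed again, and gave synovium from around the medial meniscus 1 week later. In pMx (partial medial meniscectomy) knees the meniscotibial ligament was cut and the anterior part of the medial meniscus was removed, and the tissue growing back in its place was collected at 1 week with the synovium around it trimmed away. Each group had 3 libraries of bulk RNA-seq. The pMx group therefore differs from the sham group both in the meniscus resection and in the piece of tissue taken, and these cannot be told apart.

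MMPs and ADAMTS proteases are zinc-dependent enzymes that cells secrete or hold at their surface as inactive proforms, and that cut the proteins of the extracellular matrix once activated. Collagenases open the collagen triple helix, gelatinases digest the unwound chains, stromelysins act on proteoglycans and activate other MMPs, and some ADAMTS proteases cut aggrecan, the main proteoglycan of cartilage and meniscus. TIMPs bind the active site of these enzymes and block it. In the synovium and meniscus the balance of these genes is best known from arthritis, where cartilage matrix is lost, and from wound repair, where new matrix is laid down and remodelled.

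Levels were compared as log2(TPM + 1) in limma, fitted on all 9 libraries and 16512 genes, with p-values adjusted over all of these genes by the Benjamini-Hochberg method. A gene was called higher or lower where the adjusted p was below 0.05 and the log2 fold change, on the log2(TPM + 1) scale, was beyond 1 in size. The sample titles call the libraries biological replicates but do not say whether each came from a separate animal. The study operated on both knees of its pMx rats. The p-values therefore measure the spread between these libraries. A TPM table carries no read depth, so the depth behind each value is unknown, and the libraries listed 15644 to 16125 genes above 0. The third intact library stood apart, with 10 skeletal muscle genes summing to 41847 TPM against 56.9 to 2891 TPM in the other 8 libraries. Without it, the counts of genes called below were 13 for pMx against sham, 6 in place of 9 for sham against intact and 25 for pMx against intact. In the tissue itself, 11 synovial fibroblast genes summed to 4187 to 5560 TPM in intact, 3903 to 4627 in sham and 6143 to 6930 in pMx libraries. The higher pMx sum came mostly from Col6a1, Thy1 and Htra1. Their means were 893, 326 and 904 TPM in sham and 2144, 1037 and 1566 TPM in pMx. Of the 11 genes, 2 were called higher and 4 lower between pMx and sham, against 3.36% and 4.85% of all genes. Col2a1, the defining collagen of hyaline cartilage, stayed at or below 0.89 TPM in the pMx libraries. It was at 16.14, 0.29 and 0.24 TPM in intact and 0.14, 0.46 and 2.26 TPM in sham libraries. The 10 chondrocyte and fibrocartilage genes summed to 816, 352 and 272 TPM in the intact libraries, so the first of these stood apart too.

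After pMx, 13 of the 48 genes were called against sham, 8 higher and 5 lower, which is 27.1% of them where 8.21% of all genes tested were called (3.36% higher and 4.85% lower). Sham surgery against intact knees called 9 genes, 8 higher and 1 lower, or 18.8% where all genes gave 1.96% (1.42% higher and 0.533% lower). Between pMx and intact knees 25 were called, 17 higher and 8 lower, or 52.1% where all genes gave 14.3% (6.4% higher and 7.89% lower). The 3 comparisons share their libraries, so they are not independent of each other. The 3 libraries of one group lay wholly above or below those of the other for 34 of the 48 genes between pMx and sham, or 70.8% against 56.1% of all genes, and for 25 genes between sham and intact, or 52.1% against 30.6%. In bulk tissue, fewer cells of a type and less RNA per cell cannot be told apart, which holds for every fall and rise below.

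For 17 of the 48, or 35.4% where all genes gave 7.7%, each sham library lay above each intact library and each pMx library above each sham library: Mmp2, Mmp3, Mmp12, Mmp13, Mmp14, Mmp16, Mmp19, Mmp23, Mmp25, Adamts2, Adamts6, Adamts7, Adamts12, Adamts14, Adamts16, Timp1 and Timp2. The reverse order held for Timp3, Timp4 and Adamts19, 3 of the 48 or 6.25%, where all genes gave 9.28%. Others, such as Mmp11, Mmp15, Mmp27 and Adamts5, followed neither order. The RNA integrity scores that the study lists for its RNA samples followed the order of intact, sham and pMx too, without overlap between the groups. RNA integrity and group therefore cannot be told apart, and the part of integrity in these results was not tested.

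**Figure D1:**
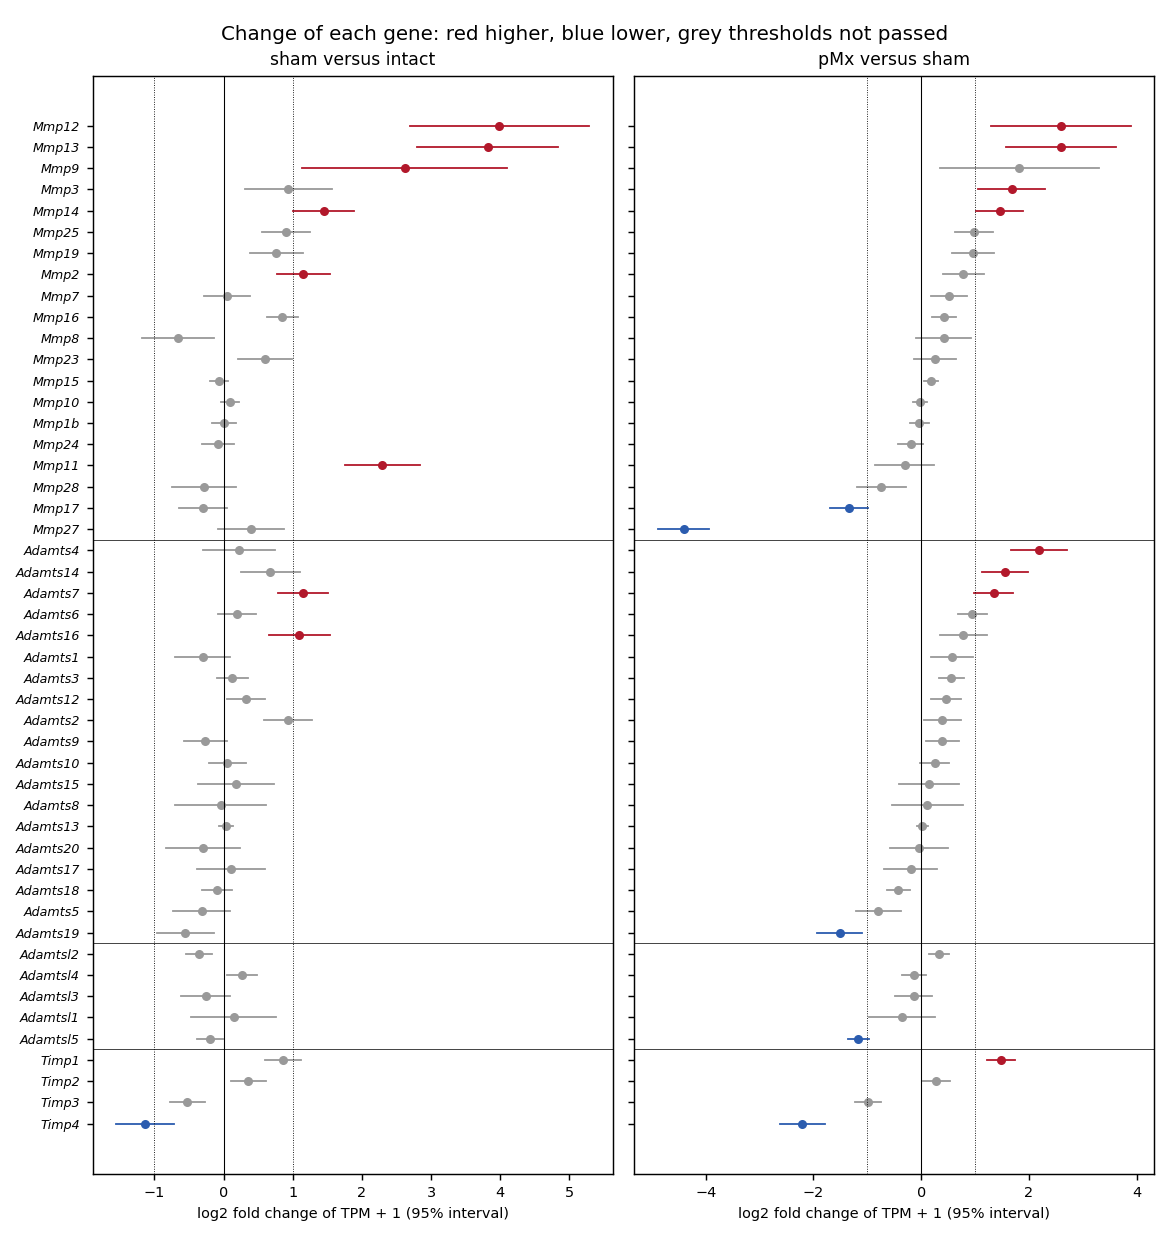
Log2 fold change of TPM + 1 (horizontal axis, with its 95% interval) for each of the 48 genes, for sham against intact on the left and pMx against sham on the right; red points were called higher, blue points lower, and grey points did not pass the thresholds, with dotted lines at -1 and 1. The widest intervals belong to Mmp12, Mmp13 and Mmp9, and Mmp27, listed at 0 in the pMx libraries, lies farthest to the left.

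Mmp13 (NCBI gene 171052), the collagenase best known for cutting type II collagen, was close to silent without surgery. Its level was 1.05, 0.62 and 0.41 TPM in intact synovium, 25.42, 44.84 and 9.83 TPM after sham surgery and 170.34, 119.37 and 139.30 TPM after pMx. No library of one group reached into the range of another, and the sham libraries spread widely. The mean rose 5.36-fold from sham to pMx, a log2 fold change of 2.60 ± 0.45 (SE, adjusted p = 0.00231, limma), after a log2 fold change of 3.82 ± 0.45 (SE, adjusted p = 0.00382, limma) from intact to sham. The other collagenase genes stayed low: Mmp8, the neutrophil collagenase, was at 0.71, 1.86 and 0.84 TPM without surgery, 0.18, 0.45 and 0.33 TPM in sham synovium and 1.24, 0.38 and 0.75 TPM in pMx tissue, with overlapping sham and pMx groups, and Mmp1b did not exceed 0.17 TPM. Mmp1 and Mmp1b are near copies of each other, as are Mmp3 and Mmp10 in part, so reads could have been split between them.

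Mmp12 (NCBI gene 117033), the macrophage elastase, took a course like that of Mmp13. It was at 1.40, 0.22 and 0.07 TPM without surgery, 30.74, 44.44 and 7.66 TPM in sham synovium and 160.41, 122.08 and 137.86 TPM in pMx tissue. The groups did not overlap, and the third sham library was again the lowest of its group. The log2 fold change was 2.60 ± 0.57 (SE, adjusted p = 0.0076, limma) for pMx against sham and 3.99 ± 0.57 (SE, adjusted p = 0.00601, limma) for sham against intact. Beside it, 9 macrophage genes summed to 1270 to 2019 TPM in intact, 2104 to 2166 TPM in sham and 1379 to 1907 TPM in pMx libraries, and between pMx and sham limma called 0 higher (1 at an unadjusted p under 0.05) and 1 lower, Cd163. Cd68, a lysosomal marker of macrophages, had the same order as Mmp12, at 100.79, 70.91 and 65.96 TPM in intact, 147.13, 166.50 and 137.70 TPM in sham and 227.77, 208.60 and 189.68 TPM in pMx libraries, and was called higher between pMx and intact at a log2 fold change of 1.41. The complement genes C1qa, C1qb and C1qc, which made up most of the sum, lay below the sham range in all pMx libraries and were not called. Between pMx and sham, Cd68 (higher), C1qb and C1qc (both lower) had a limma adjusted p under 0.05 at a size below the threshold. Chondrocyte and fibrocartilage genes, set beside Mmp13, summed to 272 to 816, 523 to 606 and 982 to 1190 TPM, a sum of mostly Comp, which was not called against sham. Of the 10, Acan, Hapln1 and Sox9 were called higher between pMx and sham, where 3.36% of all genes were called higher and 4.85% lower. The pMx libraries lay below all sham libraries for 3, namely Chad, at a mean of 17.3 TPM in sham and 0.15 TPM in pMx, Col9a1, at 0.53 and 0.16 TPM, and Cnmd, listed at 0 in pMx, none of which was called in that comparison. The part of either cell type in the change of Mmp12 or Mmp13 was not tested.

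Mmp3 (NCBI gene 171045), stromelysin-1, cuts proteoglycans and activates procollagenases. It was at 155.52, 116.69 and 102.70 in intact, 225.76, 357.10 and 164.23 in sham and 894.23, 766.02 and 638.89 TPM in pMx libraries. The groups did not overlap in either step. The rise from sham to pMx had a log2 fold change of 1.68 ± 0.27 (SE, adjusted p = 0.00179, limma), while the step from intact to sham, a log2 fold change of 0.94 ± 0.27 (SE, adjusted p = 0.059, limma), missed the thresholds, which it passed without the third sham library, at 1.20. Mmp10, stromelysin-2, did not exceed 0.13 TPM in any library. Mmp11, stromelysin-3, differed from the rest: it stood at 5.54, 7.96 and 4.67 TPM in intact synovium, 28.71, 46.20 and 26.95 TPM after sham surgery and 24.25, 31.99 and 23.87 TPM after pMx. It rose with sham surgery, at a log2 fold change of 2.29 ± 0.24 (SE, adjusted p = 0.00261, limma), and the pMx libraries lay inside or below the sham range, with a 95% interval of -0.85 to 0.24 for the log2 fold change of pMx against sham.

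Mmp13, Mmp12 and Mmp3 lie in a cluster of 10 MMP genes on rat chromosome 8, and their promoters were set beside those of their neighbours. In RefSeq (assembly GRCr8) the order along the + strand is Mmp13, Mmp12, Mmp1b, Mmp3, Mmp1, Mmp10, Mmp8, Mmp27, Mmp20 and Mmp7, and the table of levels held 9 of them. AP-1, a dimer of Fos and Jun proteins, is a long-known activator of collagenase and stromelysin promoters and binds TGAGTCA or its reverse complement TGACTCA. Within 250 bases before the start, these letters were found on either strand in 6 of the 38 genes of these families with a RefSeq window, or 15.8%, against 4.42% of 27457 genes with a window and 3.86% of the 14085 that are in the table of levels. All 6 belong to the cluster: Mmp13 at 66 to 60 bases before the start, Mmp12 at 87 to 81, Mmp3 at 71 to 65, Mmp7 at 80 to 74, Mmp1 at 84 to 78 and Mmp10 at 61 to 55. The letters TATAAA or TTTATA, which can overlap each other, were in 12 of the 38 windows, or 31.6%, against 14.1% of genes with a window. Windows were matched for 37 of the 48 genes, and none was at hand for Adamts5, Adamts8, Adamts15, Adamts16, Adamts19, Mmp2, Mmp9, Mmp14, Mmp16, Mmp17 and Mmp19.

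The 150 bases before the start are shown for the 3 genes of the cluster that were called higher, and capitals mark the AP-1 letters. Mmp7, Mmp8 and Mmp27 are shown as neighbours that were not called higher. They lie on the + strand of GRCr8 at chr8:12782679-12782828 for Mmp13, chr8:12866502-12866651 for Mmp12, chr8:12925131-12925280 for Mmp3, chr8:13132893-13133042 for Mmp7, chr8:13030602-13030751 for Mmp27 and chr8:13008740-13008889 for Mmp8.
Mmp13: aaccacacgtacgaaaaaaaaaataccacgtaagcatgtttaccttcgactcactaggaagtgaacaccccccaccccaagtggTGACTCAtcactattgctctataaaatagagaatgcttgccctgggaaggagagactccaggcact
Mmp12: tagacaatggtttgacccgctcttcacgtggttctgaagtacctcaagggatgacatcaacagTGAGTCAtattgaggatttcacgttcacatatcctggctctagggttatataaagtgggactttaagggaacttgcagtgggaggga
Mmp3: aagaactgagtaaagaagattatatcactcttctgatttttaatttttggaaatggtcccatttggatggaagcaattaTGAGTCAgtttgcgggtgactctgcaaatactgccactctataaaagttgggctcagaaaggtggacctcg
Mmp7: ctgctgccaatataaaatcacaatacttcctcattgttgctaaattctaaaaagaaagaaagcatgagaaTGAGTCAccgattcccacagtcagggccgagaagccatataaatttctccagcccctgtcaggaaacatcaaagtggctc
Mmp27: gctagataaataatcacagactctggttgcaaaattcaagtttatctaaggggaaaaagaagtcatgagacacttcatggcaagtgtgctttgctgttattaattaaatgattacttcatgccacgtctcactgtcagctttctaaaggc
Mmp8: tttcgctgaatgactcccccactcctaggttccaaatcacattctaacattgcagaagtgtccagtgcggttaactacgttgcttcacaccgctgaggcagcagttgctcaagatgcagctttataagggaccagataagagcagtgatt

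In pMx libraries, the genes with the AP-1 letters ranged from near 0 to the highest levels of the cluster. Of the 6 genes that carry them, Mmp13, Mmp12 and Mmp3 were the 3 highest of the cluster in the pMx libraries, at group means of 143, 140 and 766 TPM, while Mmp1 and Mmp10 were near 0. Mmp7, the matrilysin gene, was low and not called. Its pMx libraries, at 0.85, 0.57 and 0.28 TPM, lay above its sham libraries, at 0, 0.27 and 0 TPM. Of the 3 without them, Mmp27 was at 15.8 TPM in intact and 20.3 TPM in sham libraries on average and was listed at 0 in pMx. Mmp8 and Mmp1b, also without them, overlapped between sham and pMx. A match to the AP-1 letters describes the sequence only and was not tested as a binding site in these samples. The Fos and Jun transcripts themselves were not called higher between pMx and sham, at log2 fold changes of -0.11 and -0.57, while Fosl1, another AP-1 subunit, was called higher at 1.62.

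**Figure D2:**
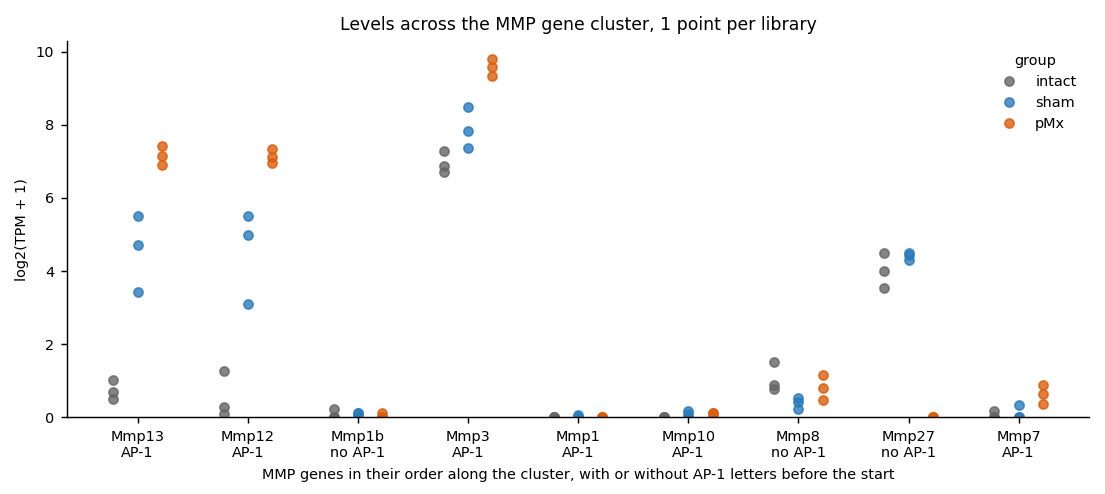
Levels on the log2(TPM + 1) scale (vertical axis) of the 9 MMP genes of the cluster in the table, in their order along the chromosome, with 1 point per library and 3 libraries per group; the label under each gene says whether AP-1 letters lie in the window before its start. Mmp13, Mmp12 and Mmp3 are highest in pMx, and Mmp27 is the gene of the cluster that is present in intact and sham and listed at 0 in pMx.

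Mmp27 was called lower after pMx. It was at 21.59, 15.15 and 10.65 TPM without surgery and 20.69, 18.57 and 21.59 TPM in sham synovium, and was listed at 0 in the 3 pMx libraries. The intact and sham groups overlapped. In this table an exact 0 can also be a failed estimate, and the fitted change depends on the constant added to the TPM, so no fold is given. The adjusted p was 1.09e-05 from limma for pMx against sham.

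Mmp2 (NCBI gene 81686), gelatinase A, was the most abundant MMP in every group and made up 52.0% of all MMP TPM in intact, 51.0% in sham and 40.8% in pMx libraries. It was at 584.69, 610.45 and 396.91 in intact, 1170.63, 1306.97 and 1016.65 in sham and 1908.11, 2151.65 and 1935.59 TPM in pMx libraries. All groups stood apart, with a log2 fold change of 1.15 ± 0.17 (SE, adjusted p = 0.00625, limma) for sham against intact and a log2 fold change of 0.78 ± 0.17 (SE, adjusted p = 0.00685, limma), under the size threshold, for pMx against sham. Without the third intact library, the lowest of its group, the step from intact to sham fell to 0.95 and under the threshold.

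Mmp9 (NCBI gene 81687), gelatinase B, is a product of neutrophils, macrophages and osteoclasts. It was at 0.68, 1.28 and 0.32 TPM in intact synovium, 7.46, 32.30 and 3.14 TPM after sham surgery and 44.90, 27.62 and 38.08 TPM after pMx. The second sham library lay above the lowest pMx library, so these groups overlapped. The step from intact to sham was called at a log2 fold change of 2.62 ± 0.65 (SE, adjusted p = 0.0349, limma), and lost the call in 7 of the 9 fits that left out 1 library, with adjusted p from 0.0559 to 0.0836 in these. The difference between pMx and sham, a log2 fold change of 1.82 ± 0.65 (SE, adjusted p = 0.0567, limma), missed the adjusted p threshold with all libraries and passed it without the second sham library, at a log2 fold change of 2.65. The 10 neutrophil genes summed to 87.1 to 229 TPM in intact, 65.7 to 73.4 in sham and 25.8 to 53.4 in pMx libraries. Between pMx and sham limma called 0 of them higher and 1 lower, Mpo, at -3.57, against 4.85% of all genes lower. Elane and Ltf, listed at 0 in pMx, did not exceed 0.19 TPM in sham either. Against intact 5 of the 10 were called lower in pMx and 1, Csf3r, higher, at 1.12, where all genes gave 7.89% lower and 6.4% higher. The 7 osteoclast genes summed to 284 to 399, 623 to 678 and 825 to 917 TPM. Ctsk and Acp5 carried nearly all of the osteoclast sum, and Ocstamp and Calcr did not exceed 0.32 TPM. Between pMx and sham limma called 0 of the 7, with 4 higher at an unadjusted p under 0.05. Of these, 3 (Ctsk, Acp5 and Itgb3) had an adjusted p under 0.05 at a size below the threshold. Sham against intact called 2 higher, Acp5 and Atp6v0d2, and pMx against intact 4 higher, with 0 lower in both. All genes gave 1.42% and 6.4% higher in these comparisons. The part of these cells in the level of Mmp9 was not tested.

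Among the 6 membrane-type MMPs, Mmp14 (NCBI gene 81707), which cuts collagen at the cell surface and activates the Mmp2 proform, dominated. It was at 225.55, 243.92 and 159.01 TPM without surgery, 580.83, 697.28 and 445.26 TPM in sham synovium and 1580.95, 1638.75 and 1441.41 TPM in pMx tissue. Each step separated the groups completely, with a log2 fold change of 1.45 ± 0.19 (SE, adjusted p = 0.00516, limma) for sham against intact and 1.46 ± 0.19 (SE, adjusted p = 6.13e-04, limma) for pMx against sham. Its share of all MMP TPM went from 20.5% in intact to 25.2% in sham and 31.7% in pMx libraries.

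Mmp16, a close relative of Mmp14, was at 1.97, 1.88 and 1.67 in intact, 4.14, 4.34 and 3.85 in sham and 5.97, 6.36 and 5.33 TPM in pMx libraries. Mmp25, a form anchored by a lipid tail and known from leukocytes, stood at 0.90, 0.84 and 0.99 TPM in intact synovium, 2.60, 2.89 and 2.27 TPM after sham surgery and 7.97, 5.49 and 5.05 TPM after pMx. Both lay lowest in intact and highest in pMx without overlap and were called only between pMx and intact, at a log2 fold change of 1.28 ± 0.10 (SE, adjusted p = 1.54e-05, limma) for Mmp16 and 1.89 ± 0.15 (SE, adjusted p = 1.95e-05, limma) for Mmp25. Against sham Mmp25 lay just short of the size threshold, at 0.98 ± 0.15 (SE, adjusted p = 0.0013, limma), and passed it with quantile scaling, at 1.08. Mmp17, the other lipid-anchored form, went the opposite way, with 14.99, 21.60 and 13.69 TPM without surgery, 13.15, 12.51 and 13.90 TPM in sham synovium and 4.34, 4.52 and 4.93 TPM in pMx tissue. Intact and sham overlapped, and every pMx library lay below both, with a log2 fold change of -1.34 ± 0.15 (SE, adjusted p = 2.88e-04, limma) against sham. Mmp15 did not vary beyond 18.65 to 22.34 TPM over the 9 libraries, at 19.91, 20.77 and 20.23 in intact, 20.27, 19.13 and 18.65 in sham and 22.08, 21.86 and 22.34 TPM in pMx libraries, and Mmp24 stayed below 1 TPM. Mmp24 overlaps an antisense gene and the strand setting of the counting is not given in the sources used here, so its reads cannot be told from those of that gene.

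The remaining MMPs split by direction. Mmp19, an enzyme with basement membrane substrates, was at 35.47, 36.18 and 27.03 TPM in intact synovium, 60.35, 66.30 and 44.11 TPM after sham surgery and 101.74, 126.51 and 104.66 TPM after pMx. Mmp23 was at 50.77, 49.08 and 30.99 TPM without surgery, 63.08, 66.74 and 65.30 TPM in sham synovium and 74.45, 88.09 and 71.34 TPM in pMx tissue. Both lay lowest in intact and highest in pMx without overlap, but Mmp19 was called only between pMx and intact, at a log2 fold change of 1.73 ± 0.17 (SE, adjusted p = 5.82e-05, limma), and Mmp23 in no comparison, with a log2 fold change of 0.85 ± 0.17 (SE, adjusted p = 0.0034, limma) there. Mmp19 lay just short of the size threshold against sham, at 0.96 ± 0.17 (SE, adjusted p = 0.00257, limma). Mmp28, epilysin, was at 13.77, 15.62 and 9.58 in intact, 8.82, 11.50 and 10.88 in sham and 4.55, 5.86 and 7.26 TPM in pMx libraries. The intact and sham groups overlapped and the pMx libraries lay below both, with a log2 fold change of -1.02 ± 0.20 (SE, adjusted p = 0.00313, limma) between pMx and intact. That call was lost with median-of-ratios scaling, at -0.99, with quantile scaling, at -0.93, and in 3 of the 9 fits without 1 library, at -0.87 to -0.96.

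**Figure D3:**
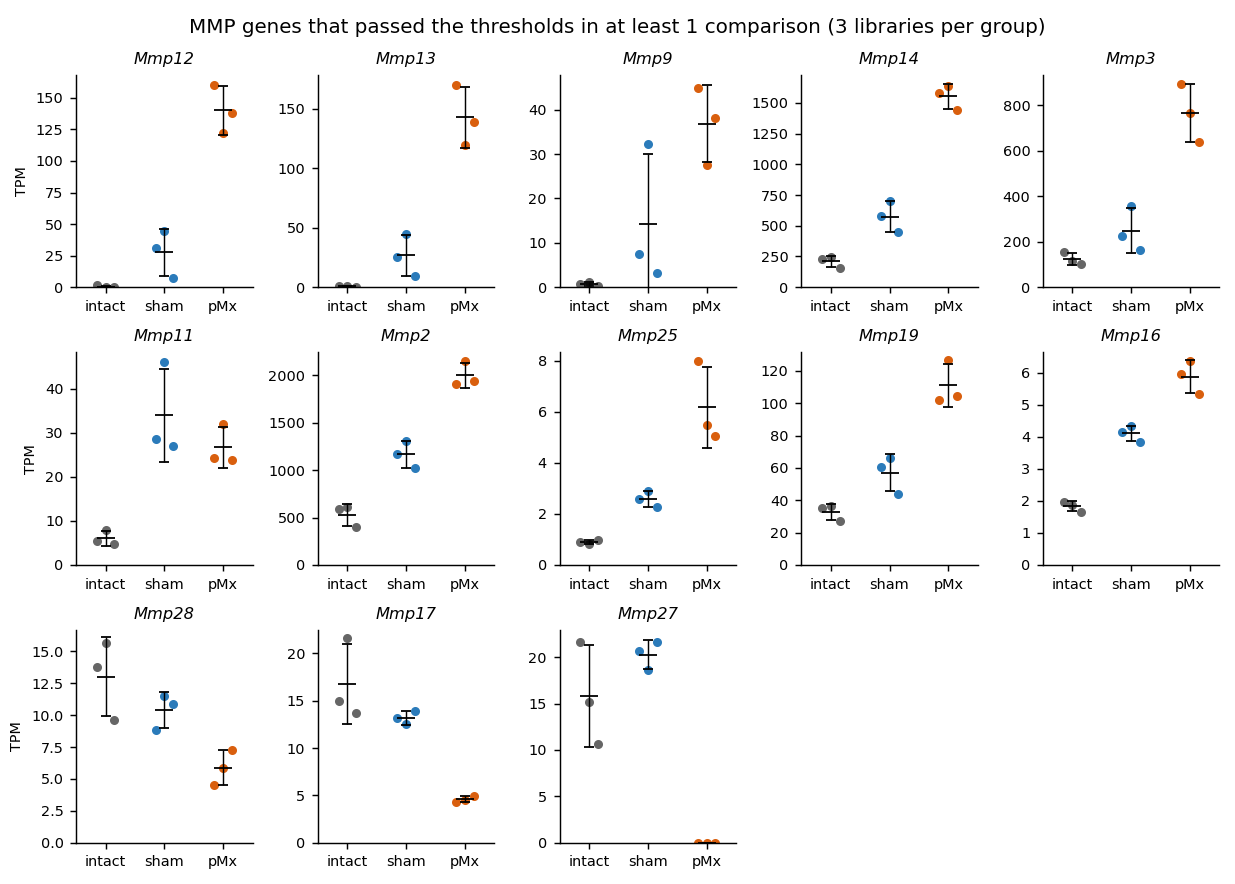
TPM (vertical axes, each from 0) of the 13 MMP genes called in at least 1 comparison, with 1 point per library and the mean and SD of the 3 libraries in each group as a bar with whiskers. In 8 of the panels every pMx library lies above every sham library, Mmp9 and Mmp11 overlap between sham and pMx, and Mmp28, Mmp17 and Mmp27 are lowest in pMx.

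The ADAMTS proteases that cut aggrecan and versican did not move together. Of 7, 1 was called between pMx and sham, and it was higher, where 3.36% of all genes were called higher and 4.85% lower. Adamts4 (NCBI gene 66015), aggrecanase-1, was at 6.30, 6.30 and 4.05 TPM without surgery, 8.34, 7.73 and 4.31 TPM in sham synovium and 31.44, 32.57 and 36.31 TPM in pMx tissue. Intact and sham overlapped, and all pMx libraries lay far above, at a log2 fold change of 2.18 ± 0.23 (SE, adjusted p = 1.95e-04, limma), or 4.92-fold in mean TPM. Adamts5, aggrecanase-2, was at 21.18, 23.43 and 15.18 in intact, 13.23, 15.66 and 18.22 in sham and 10.04, 8.55 and 7.30 TPM in pMx libraries. Here the pMx libraries lay below both other groups, which overlapped, with a log2 fold change of -1.11 ± 0.18 (SE, adjusted p = 0.00106, limma) between pMx and intact and a log2 fold change of -0.79 ± 0.18 (SE, adjusted p = 0.00938, limma), under the size threshold, between pMx and sham. The call against intact was lost without the second intact library, at -0.99.

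Adamts1 was at 22.24, 37.74 and 27.40 TPM in intact synovium, 19.68, 23.55 and 25.75 TPM after sham surgery and 35.47, 33.34 and 34.46 TPM after pMx, and Adamts15 at 18.36, 23.58 and 11.67 TPM without surgery, 17.49, 23.23 and 18.56 TPM in sham synovium and 20.95, 26.98 and 18.02 TPM in pMx tissue. Neither was called: the 95% interval for pMx against sham was 0.17 to 0.97 for Adamts1, whose pMx libraries lay above all sham libraries, and -0.42 to 0.69 for Adamts15, whose groups overlapped throughout. Beside them, Acan and Vcan, which encode their substrates aggrecan and versican, were called higher between pMx and sham at log2 fold changes of 3.43 and 1.48.

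The procollagen-processing ADAMTS proteases cut the amino-terminal propeptide from fibrillar procollagens. Adamts2 was the highest ADAMTS gene in every group, at 56.69, 52.06 and 36.83 in intact, 81.47, 101.23 and 95.35 in sham and 120.13, 129.80 and 115.73 TPM in pMx libraries. Adamts14 was at 8.41, 11.75 and 7.68 TPM in intact synovium, 16.15, 18.13 and 11.99 TPM after sham surgery and 43.86, 54.14 and 43.27 TPM after pMx. Their groups did not overlap, with intact lowest and pMx highest. Adamts14 was called between pMx and sham, a log2 fold change of 1.56 ± 0.19 (SE, adjusted p = 3.60e-04, limma), whereas Adamts2 was called only between pMx and intact, a log2 fold change of 1.33 ± 0.15 (SE, adjusted p = 1.38e-04, limma). Adamts3 did not exceed 1.31 TPM. Col1a1 and Col1a2, the type I procollagen chains, were called higher beside them at 1.81 and 1.77 between pMx and sham, on the log2 scale.

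Of the 9 other ADAMTS proteases, Adamts7 and Adamts12 are known for cutting the cartilage protein COMP. Adamts7 (NCBI gene 315879) was at 7.09, 7.74 and 5.55 TPM without surgery, 14.94, 20.59 and 13.69 TPM in sham synovium and 39.24, 43.74 and 45.04 TPM in pMx tissue. No groups overlapped, and it was called in each comparison, at a log2 fold change of 1.15 ± 0.16 (SE, adjusted p = 0.00564, limma) for sham against intact and a log2 fold change of 1.35 ± 0.16 (SE, adjusted p = 3.61e-04, limma) for pMx against sham. The call for sham against intact was lost without the second sham library, at 0.98. Adamts12 showed the same order with smaller steps, at 28.02, 28.10 and 21.58 in intact, 33.90, 34.80 and 28.90 in sham and 42.90, 49.29 and 42.93 TPM in pMx libraries, and was not called. Comp itself was called higher only between pMx and intact, at a log2 fold change of 1.12.

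Adamts16 was at 2.98, 3.48 and 2.41 TPM in intact synovium, 7.59, 7.85 and 6.83 TPM after sham surgery and 12.46, 18.58 and 10.56 TPM after pMx. It was called between sham and intact, a log2 fold change of 1.10 ± 0.19 (SE, adjusted p = 0.0119, limma), a call lost without the third intact or the second sham library. Between pMx and intact it was called at 1.88 ± 0.19 (SE, adjusted p = 7.26e-05, limma), a call kept in all 9 fits without 1 library. Against sham it was under the size threshold, at 0.79 ± 0.19 (SE, adjusted p = 0.0129, limma). Adamts6, which acts on fibrillin microfibrils, was at 2.79, 2.68 and 2.45 TPM without surgery, 3.15, 3.57 and 2.82 TPM in sham synovium and 7.12, 8.11 and 6.09 TPM in pMx tissue, and was called only between pMx and intact, a log2 fold change of 1.15 ± 0.12 (SE, adjusted p = 8.22e-05, limma). Against sham Adamts6 lay just short of the size threshold, at 0.95 ± 0.12 (SE, adjusted p = 4.77e-04, limma). Its relative Adamts10 was at 40.25, 50.18 and 35.98 in intact, 41.65, 46.09 and 42.30 in sham and 54.76, 53.50 and 46.98 TPM in pMx libraries, and was not called in any comparison. Adamts19 was at 5.49, 7.04 and 4.44 TPM in intact synovium, 3.93, 3.17 and 3.39 TPM after sham surgery and 0.94, 0.52 and 0.31 TPM after pMx. Its pMx libraries were all below 1 TPM, with a log2 fold change of -1.52 ± 0.18 (SE, adjusted p = 3.78e-04, limma) against sham. The step from intact to sham, without overlap, was not called, at -0.55 ± 0.18 (SE, adjusted p = 0.0846, limma).

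The ADAMTS-like proteins lack the protease domain and bind matrix, among it fibrillin microfibrils. Adamtsl4 was at 43.31, 43.43 and 36.25 TPM without surgery, 49.32, 48.10 and 50.63 TPM in sham synovium and 50.69, 43.26 and 40.85 TPM in pMx tissue, and was not called. Adamtsl5 was at 39.64, 44.17 and 44.41 in intact, 38.01, 34.06 and 39.76 in sham and 15.45, 17.38 and 15.39 TPM in pMx libraries. All pMx libraries of Adamtsl5 lay below the others, with a log2 fold change of -1.16 ± 0.08 (SE, adjusted p = 3.97e-05, limma) against sham. The summed TPM of the 5 ADAMTS-like genes was 98.9 ± 5.43 in intact, 101 ± 4.57 in sham and 73.9 ± 7.14 in pMx libraries (SD, n = 3).

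The 15 genes of these families at low levels, Mmp1b, Mmp7, Mmp8, Mmp10, Mmp24, Adamts3, Adamts8, Adamts9, Adamts13, Adamts17, Adamts18, Adamts20, Adamtsl1, Adamtsl2 and Adamtsl3, ranged from 0 to 8.89 TPM, and 5 of them stayed under 1 TPM in every library. None was called, although 4 had a limma adjusted p below 0.05 between pMx and sham, and their largest log2 fold change in size was 0.56 between pMx and sham, for Adamts3. On this scale the change of genes near 0 is understated: with 0.1 in place of 1 added to the TPM, Mmp7, Adamts3 and Adamts18 were called between pMx and sham, at 2.01, 1.27 and -1.19.

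The TIMPs moved in opposite directions. Timp1 (NCBI gene 116510), which inhibits most secreted MMPs but acts poorly on Mmp14, was at 206.84, 187.55 and 180.26 TPM in intact synovium, 380.17, 386.21 and 288.11 TPM after sham surgery and 991.23, 1013.51 and 914.83 TPM after pMx. Timp2, which blocks MMPs and also takes part in the activation of Mmp2 by Mmp14, was at 1097.27, 1017.09 and 803.25 TPM without surgery, 1225.94, 1205.85 and 1274.21 TPM in sham synovium and 1522.41, 1500.18 and 1471.70 TPM in pMx tissue. In both genes every pMx library lay above every sham library, and every sham library above every intact library. Timp1 was called between pMx and sham, a log2 fold change of 1.48 ± 0.12 (SE, adjusted p = 5.60e-05, limma) or 2.77-fold in mean TPM, while Timp2 was not called, at a log2 fold change of 0.28 ± 0.11 (SE, adjusted p = 0.0829, limma).

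Timp3 (NCBI gene 25358), the TIMP that binds to the matrix and inhibits aggrecanases, was at 387.14, 416.99 and 317.56 in intact, 261.88, 256.87 and 255.91 in sham and 114.90, 138.37 and 137.06 TPM in pMx libraries. Timp4 was at 41.24, 53.58 and 35.18 TPM in intact synovium, 17.11, 19.44 and 20.39 TPM after sham surgery and 3.73, 2.42 and 3.99 TPM after pMx. Their groups did not overlap, with intact highest and pMx lowest. Timp3 was called lower between pMx and intact, a log2 fold change of -1.51 ± 0.11 (SE, adjusted p = 1.15e-05, limma), and lay just short of the size threshold against sham, a log2 fold change of -0.99 ± 0.11 (SE, adjusted p = 2.40e-04, limma). Timp4 was called lower in every comparison, with a log2 fold change of -1.13 ± 0.18 (SE, adjusted p = 0.00946, limma) for sham against intact and -2.21 ± 0.18 (SE, adjusted p = 7.25e-05, limma) for pMx against sham, the first of which was lost without the second intact library, at -0.97.

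**Figure D4:**
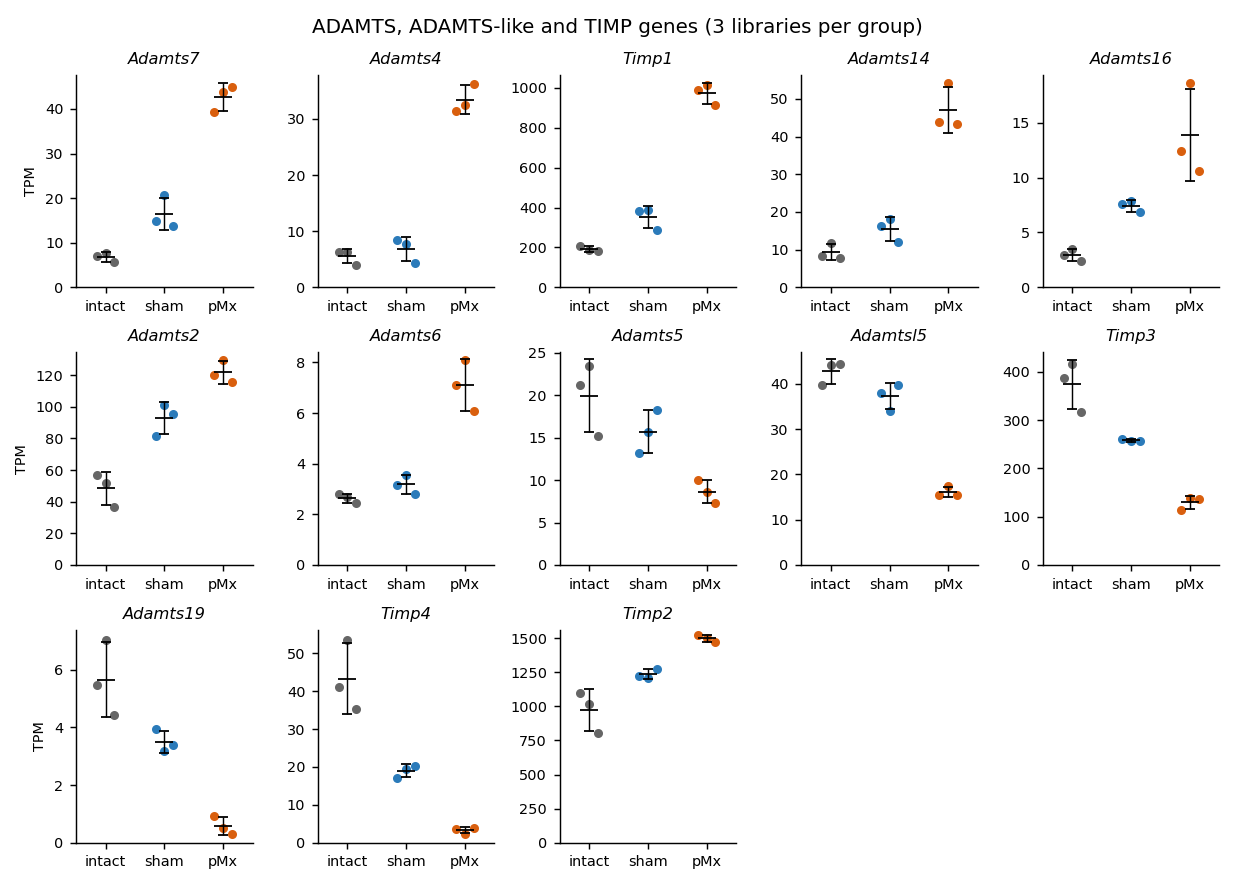
TPM (vertical axes, each from 0) of the 12 ADAMTS, ADAMTS-like and TIMP genes called in at least 1 comparison, and of Timp2, with 1 point per library and the mean and SD of 3 libraries per group as a bar with whiskers. Adamts4 overlaps between intact and sham and is higher in pMx, and Timp3, Timp4 and Adamts19 are highest in intact and lowest in pMx, without overlap.

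The mix of TIMP transcripts changed with these moves. Timp2 held 61.5%, 66.3% and 57.5% of TIMP TPM in intact, sham and pMx libraries, Timp1 went from 12.1% to 18.9% and 37.4%, and Timp3 went from 23.6% to 13.9% and 5.0%. The summed TPM of the 20 MMPs was 1020 ± 208 in intact, 2284 ± 439 in sham and 4901 ± 285 in pMx libraries (SD, n = 3). For the 4 TIMPs it was 1581 ± 214 in intact, 1864 ± 23.5 in sham and 2605 ± 67.8 in pMx libraries (SD, n = 3), and for the 19 ADAMTS proteases 232 ± 39.3 in intact, 294 ± 22.4 in sham and 444 ± 29.5 in pMx libraries (SD, n = 3). The ratio of MMP to TIMP TPM was 0.655, 0.684 and 0.584 in the intact libraries, 1.20, 1.46 and 1.01 in the sham libraries and 1.90, 1.93 and 1.81 in the pMx libraries, without overlap. This ratio counts transcripts and says nothing of how much enzyme was active.

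**Figure D5:**
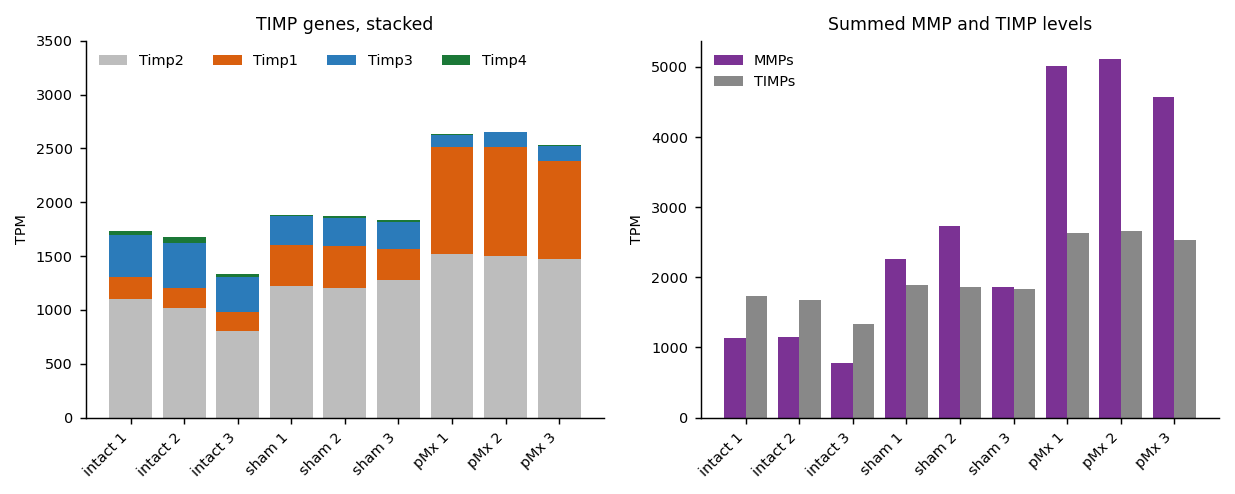
TPM (vertical axes, from 0) in each of the 9 libraries, with the 4 TIMP genes stacked on the left and the sums of the 20 MMPs and the 4 TIMPs side by side on the right. The MMP sum is below the TIMP sum in the 3 intact libraries and above it in the 3 sham and 3 pMx libraries, by the most in pMx.

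Adipocyte markers were lower in the same pMx libraries, and synovial fibroblast markers were mixed. All 8 adipocyte genes were called lower between pMx and sham, where 4.85% of all genes were called lower and 3.36% higher. Their sum was 3553 to 9044 TPM in intact, 5667 to 6690 TPM in sham and 394 to 650 TPM in pMx libraries. Of 11 synovial fibroblast genes 4 were called lower between pMx and sham, namely Clic5 and Cd55, markers of the synovial lining, at -4.09 and -1.02, and Pi16 and Dpp4, at -1.86 and -2.31. The 2 called higher were Thy1, a marker of the layer below the lining, at 1.69, and Col6a1, at 1.27. The lining genes Prg4, whose groups overlapped, and Htra1, which lay above the sham range in all pMx libraries, were not called, at 0.12 and 0.79 on the log2 scale. The endothelial genes summed to 924 to 1197, 780 to 841 and 647 to 817 TPM. Between pMx and sham limma called 0 of 8, with 2 higher and 3 lower at an unadjusted p under 0.05. The 3 lower ones, Tek, Vwf and Emcn, also had an adjusted p under 0.05, at a size below the threshold. Between pMx and intact these 3 were called lower and 0 higher, where all genes gave 7.89% lower and 6.4% higher. The part of these cell types in the falls of Timp3, Timp4, Mmp17, Mmp27, Mmp28, Adamts5, Adamts19 and Adamtsl5 was not tested.

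Genes that act with these enzymes moved in part. Between pMx and sham 3.36% of all genes were called higher and 4.85% lower. Of 15 activators and inhibitors of matrix proteases tested, 3 were called higher and 1 lower in that comparison. Those higher included Thbs2, a matrix protein that binds MMPs for uptake, at 2.61, and A2m, a broad protease trap, at 1.93, and the gene called lower was Pcsk6, a proprotein convertase, at -2.23. Reck, a membrane inhibitor of MMPs, was not called, at -0.70. Of 12 ADAM and astacin proteases, Adam12 and Adam8 were called higher, at 2.69 and 1.08, and Adam33 lower, at -1.66. Their counts for sham against intact were 1 higher and 1 lower of 15, and 1 higher of 12, where all genes gave 1.42% higher and 0.533% lower.

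Of 19 inducers of MMP transcription tested, 3 were called between pMx and sham, all of them higher, namely Fosl1 and the transcription factors Runx1, at 1.44, and Runx2, at 1.36. All genes gave 3.36% higher and 4.85% lower in that comparison. The cytokine genes Il1b, Tnf and Il6 were not called, at -0.26, -0.18 and 0.38. Between sham and intact limma called 0 of the 19, with 5 higher and 4 lower at an unadjusted p under 0.05. Of 12 matrix proteins that these enzymes cut, 4 were called higher and 1 lower between pMx and sham, the fall being that of Eln, elastin, at -1.68. Between sham and intact 5 of these 12 were called higher and 0 lower, where all genes gave 1.42% higher and 0.533% lower.

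The sham libraries were not alike for the genes that rose. Of the 8 genes called higher between pMx and sham, the second sham library was the highest of its group for 7 and the third was the lowest for all 8. Over the 554 genes called higher in that comparison, the second was the highest for 75.1% and the third the lowest for 87.2%. Leaving out the second sham library raised the count of the 48 genes called between pMx and sham from 13 to 17, and leaving out the third gave 13.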

How the data were processed

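RNA of 9 libraries, 3 per group, was sequenced by the study from poly(A)-selected, strand-marked libraries on a BGI platform. The submitters' processing notes name HISAT2 2.0.4 and the mRatBN7.2 assembly, and the authors deposited 1 table of TPM values per gene for all libraries. The counting tool and its strand setting are not given in the sources used here.

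From the deposited TPM, genes above 0 TPM in at least 3 libraries were kept (16512 of 17602), 1 was added, and log2 values were fitted with limma 3.58.1 in R 4.3.3 (empirical Bayes with a trend) on 3 groups without a block. Figures were drawn with Matplotlib 3.10.9. The steps were tested on simulated data. Of the gene identifiers, 17419 (98.96%) were found in the RefSeq GRCr8 table used for promoters, whose coordinates belong to that assembly and not to mRatBN7.2. No pair of libraries was identical, and log2 values correlated at 0.959 to 0.996 within groups. Same-numbered libraries deviated together in some pairs and not in others, so the numbers were not taken to pair them.

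The genes and the lists of pathway and marker genes were chosen with earlier results of these data known. Values in every library are given for genes called in at least 1 comparison or with a group mean of at least 20 TPM (33 genes), and the others by range. Of each pathway list, up to 4 called genes with the largest change between pMx and sham are named, except 1 gene that is not reported here, and Reck, Vcan, Fos, Jun, Il1b, Tnf, Il6, Comp and the marker genes were named in addition, after their values were seen. Alternatives were the added constant, the filter, the scaling, the fit and each library left out.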

Additional observations from a re-analysis of the deposited data

How the results depend on the processing

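Of the 47 calls over the 3 comparisons, 39 held under each of the 19 alternatives in which the gene was fitted, and 0 turned in direction. Some alternatives leave the fold change as it was and could not turn it, such as leaving out a library of the group not compared. The adjusted p alone only drops the size limit and could lose no call. With the adjusted p alone and no limit on size, 29 of the 48 genes were called between pMx and sham and 17 between sham and intact. Over all 16512 genes, the same setting called 6046 and 2097, so these counts are not comparable with the shares given above. Leaving out 1 library gave 13 to 17 genes called between pMx and sham, 6 to 10 between sham and intact and 23 to 25 between pMx and intact. Mmp12 lost its call between pMx and sham with 0.01 added to the TPM (limma adjusted p = 0.0614 at a log2 fold change of 2.67, the cause was not tested), and Mmp9 lost its call between sham and intact when only these 6 libraries were fitted (limma adjusted p = 0.0968, with fewer samples in the fit). Mmp9 passed between pMx and sham where genes under a mean of 1 TPM were left out, a filter under which 39 of the 48 genes were fitted. Timp3 passed between pMx and sham with quantile scaling, at -1.02. No scaling moved the median of all genes by over 0.1 on the log2 scale.

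With the replicate number as a block, 13 genes were called between pMx and sham, 9 between sham and intact and 25 between pMx and intact, and all 47 calls were kept. The numbers were not taken as a pairing, since not every pair deviated together: deviations of same-numbered libraries correlated at 0.03, 0.37 and 0.48 between pMx and sham, at 0.00, -0.40 and -0.49 between sham and intact and at -0.38, -0.44 and -0.66 between pMx and intact. The unknown depth limits what can be said of genes near 0 TPM.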
